A study of Homo sapiens with 16 samples.

Results

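WT1 and PRAME are 2 genes whose proteins are used as leukaemia-associated antigens, and their RNA was followed across all 16 libraries of a study of 2 human acute myeloid leukaemia cell lines. They are 2 of the 60603 genes in the deposited count table, found by symbol, and they were chosen for their pattern in the counts of these same 16 libraries. Their levels and changes are therefore given as a description with no test, and tests are given only for other genes. The lists of other genes were also chosen with earlier results of these data known. Their p-values and counts are therefore not independent evidence. Both passed the low-count filter in SKNO-1, and only PRAME passed it in U-937, where WT1 is described from its counts.

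U-937 is an established line of monocyte-like leukaemia cells. SKNO-1 is an established myeloid line in which RUNX1 is fused to RUNX1T1. Each line received for 24 h DMSO (the solvent, listed in the labels at 0.1 µM), ATRA (all-trans retinoic acid, which activates retinoic acid receptors) at 0.1 µM, Corin (a dual inhibitor of the demethylase LSD1 and the histone deacetylases of the CoREST complex) at 0.1 µM, or ATRA plus Corin with each agent at 0.1 µM. Each of the 8 groups has 2 libraries. The SKNO-1 medium alone also held GM-CSF at 10 ng/mL, so line and medium cannot be told apart. Nothing in the labels says that the 2 libraries of a group came from separate cultures, so the spread and every p-value measure only the difference between those libraries, which may be technical. Each genotype is represented by 1 line.

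WT1 is a zinc finger transcription factor of the developing kidney and gonad that is expressed in immature blood progenitors and in most acute myeloid leukaemias, where its RNA is used to follow residual disease and its peptides have been used as vaccines. PRAME is a leucine-rich repeat protein normally made in testis and re-expressed in many tumours and leukaemias. It is a substrate receptor of the CUL2 ubiquitin ligase and has been described as a repressor of retinoic acid receptor signalling that works with the Polycomb enzyme EZH2, which is why its RNA under ATRA is of interest.

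In GENCODE release 44 on GRCh38, WT1 (ENSG00000184937.14 in the deposited table) spans chromosome 11 from 32387775 to 32435564 on the minus strand, and PRAME (ENSG00000185686.18) spans chromosome 22 from 22547701 to 22559361 on the minus strand. The annotation gives 22 transcripts to WT1 and 14 to PRAME, and the values used here are summed over the transcripts of a gene. The windows around their annotated starts are shown because the treatments act through a DNA-bound receptor and a chromatin complex. They come from RefSeq on GRCh38.p14, run from 250 bases before to 50 bases after the start, and are written 5′ to 3′ on the gene's strand, chr11:32435490-32435789 for WT1, chr22:22559216-22559515 for the outermost PRAME start and chr22:22557583-22557882 for an internal PRAME start. Capitals mark the GC box GGGCGG or its reverse complement CCGCCC.
WT1: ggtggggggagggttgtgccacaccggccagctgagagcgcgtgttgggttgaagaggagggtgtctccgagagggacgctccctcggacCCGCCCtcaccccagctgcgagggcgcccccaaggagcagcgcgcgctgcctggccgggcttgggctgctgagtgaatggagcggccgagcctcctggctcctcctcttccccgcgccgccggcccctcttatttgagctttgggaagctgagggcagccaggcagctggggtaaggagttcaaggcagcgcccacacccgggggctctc
PRAME outer start: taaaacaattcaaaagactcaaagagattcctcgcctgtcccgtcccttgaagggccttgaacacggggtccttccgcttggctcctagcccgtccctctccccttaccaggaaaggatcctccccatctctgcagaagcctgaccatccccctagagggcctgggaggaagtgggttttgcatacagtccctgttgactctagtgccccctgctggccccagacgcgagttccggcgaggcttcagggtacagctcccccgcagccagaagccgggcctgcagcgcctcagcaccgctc
PRAME internal start: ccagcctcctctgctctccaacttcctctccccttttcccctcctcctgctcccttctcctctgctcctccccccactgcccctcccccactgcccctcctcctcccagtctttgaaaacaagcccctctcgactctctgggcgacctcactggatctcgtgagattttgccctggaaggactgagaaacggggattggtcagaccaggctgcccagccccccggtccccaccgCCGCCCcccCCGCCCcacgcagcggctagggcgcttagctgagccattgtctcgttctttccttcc

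The WT1 window held 21 CpG dinucleotides and 70.0% G plus C, against a median of 14 CpG over 35116 such windows. The outer PRAME window held 13 CpG at 61.0% G plus C and the internal one 12 CpG at 64.3%. On either strand, the GC box was found 1 time at WT1, 0 times at the outer PRAME start and 2 times at the internal one, and 45% of all windows held it. The retinoid receptor half-site AGGTCA, held by 13.8% of all windows, and its direct repeat DR5, held by 0.0057%, were in none of the 3 windows, nor were AGATAA (10.3%) and TATAAA (11.5%). RefSeq gives 3 further WT1 starts and 1 further PRAME start, and the WT1 window at chr11:32400351-32400650 held 1 AGGTCA half-site. These letters describe the windows only, and no deposited value used here measures a factor bound there.

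Library totals ran from 28.4 to 37.8 M estimated counts. Of the line markers, RUNX1T1 lay between 92.0 and 148 CPM (counts per 1 M of the library's total, scaled by TMM) in SKNO-1 and had 2 counts in all 8 U-937 libraries together, and HOXA9 and HOXA10 had 0 counts in SKNO-1. In U-937 HOXA9 lay at 38.4 to 70.7 CPM and HOXA10 at 74.7 to 91.2. KIT, listed for SKNO-1, lay at 282 to 630 CPM there and reached at most 1.06 in U-937. Other listed markers were less clear: CD34, listed for SKNO-1, reached at most 1.88 CPM there. CD4, listed for U-937, lay at 188 to 239 CPM in SKNO-1 and at 112 to 203 in U-937. LYZ and ITGAX, listed for U-937, also overlapped. LYZ lay at 45.4 to 389 CPM in SKNO-1 and 216 to 2773 in U-937, and ITGAX at 0.318 to 17.2 and 6.07 to 143. Germ cell genes, which mark tissue that normally expresses PRAME, were at or under 1.16 CPM in every library: over the 8 libraries of SKNO-1 and of U-937, DAZL had 0 and 14 counts, DDX4 had 16 and 43 and SYCP3 had 201 and 84. The SKNO-1 DMSO libraries stood apart from each other: the SD of the log2 difference between replicates over 9354 genes was 0.361 there and between 0.108 and 0.208 in the other 7 groups. The changes of WT1 and PRAME against SKNO-1 DMSO, and the list counts with ATRA and with Corin, are therefore also given without each of those libraries. For other named genes such values are not given throughout. Wherever a library is left out, its group has 1 library, which is assumed to vary like the other groups, and the spread comes from those groups only.

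In SKNO-1, WT1 RNA was present in every library and was lowest with both agents. The 2 DMSO libraries held 959 and 1144 WT1 counts, or 27.7 and 30.1 CPM, with a mean of 28.9 ± 1.69 CPM (SD, n = 2). With ATRA the values were 24.8 and 26.6 CPM, mean 25.7 ± 1.22. With Corin they were 16.9 and 17.1 CPM, mean 17.0 ± 0.142. With ATRA plus Corin they were 11.9 and 11.2 CPM, mean 11.6 ± 0.483. The groups thus fell in the order DMSO, ATRA, Corin, both agents, and no library overlapped that of another group. WT1 was chosen for its pattern, and the share of all genes whose groups of 2 libraries lie apart like this is not given here. In these bulk samples, fewer cells carrying WT1 RNA and less WT1 RNA per cell cannot be told apart.

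The fitted log2 change of WT1 against DMSO in SKNO-1 was -0.17 (SE 0.0889) with ATRA, which is 1.13-fold lower, -0.77 (SE 0.0903) with Corin and -1.32 (SE 0.0925) with both agents. Without DMSO replicate 1 these values were -0.27, -0.85 and -1.40, and without DMSO replicate 2 they were -0.15, -0.73 and -1.27. The 3 changes kept their direction whichever DMSO library was left out, and the ATRA value was less than 2 of its standard errors. Adding Corin to ATRA went with a change of -1.15 (SE 0.0925), and adding ATRA to Corin with one of -0.55 (SE 0.0930). The last value was larger than the change with ATRA on its own. The departure from additivity, which is the log2 change under the combination less the 2 changes under the single agents added together, was -0.38 (SE 0.129) for WT1, and it was -0.27 and -0.40 without DMSO replicate 1 and 2.

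Per length, the deposited TPM (transcripts per 1 M) of WT1 were 11.0 and 21.5 in the DMSO libraries although their counts were close. The effective WT1 lengths that RSEM assigned there differed, at 1873.72 and 1520.94 bases, and 32.0% and 25.1% of all TPM in those libraries lay in genes with an effective length under 200 bases. TPM were 14.9 and 14.5 with ATRA, 9.65 and 10.7 with Corin, and 4.42 and 4.97 with both agents. The 2 libraries with both agents were the lowest on this scale too, but a Corin library and a DMSO library lay close together. On the TPM scale the DMSO libraries also lay on either side of the ATRA libraries, so the order of those groups held in CPM only. Among protein-coding genes with TPM above 0, WT1 stood at percentiles 60.9 and 68.8 with DMSO and 46.2 and 46.5 with both agents.

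In U-937, WT1 was near the limit of detection. The DMSO libraries held 9 and 7 WT1 counts (0.282 and 0.237 CPM), the Corin libraries 7 and 3, and all 4 libraries with ATRA, alone or with Corin, held 0. The floor that 0 counts allow was taken as 3 counts over the group, and the 16 DMSO counts were taken as exact. On these terms the ATRA group was at least 6.01-fold lower than DMSO and the group with both agents at least 5.46-fold lower. The Corin to DMSO ratio was 0.563, with an exact 95% counting interval from 0.228 to 1.32. The interval covers counting error only, since the reads carry no molecular identifiers, and the floors cover only that of the treated groups. In the authors' deposited table the log2 change of WT1 in U-937 was -5.61 (SE 2.12) with ATRA, -5.49 (SE 2.20) with both agents and -0.86 (SE 1.28) with Corin. The values with ATRA and with both agents come from groups with 0 counts, so they are no measure of size.

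**Figure D1:**
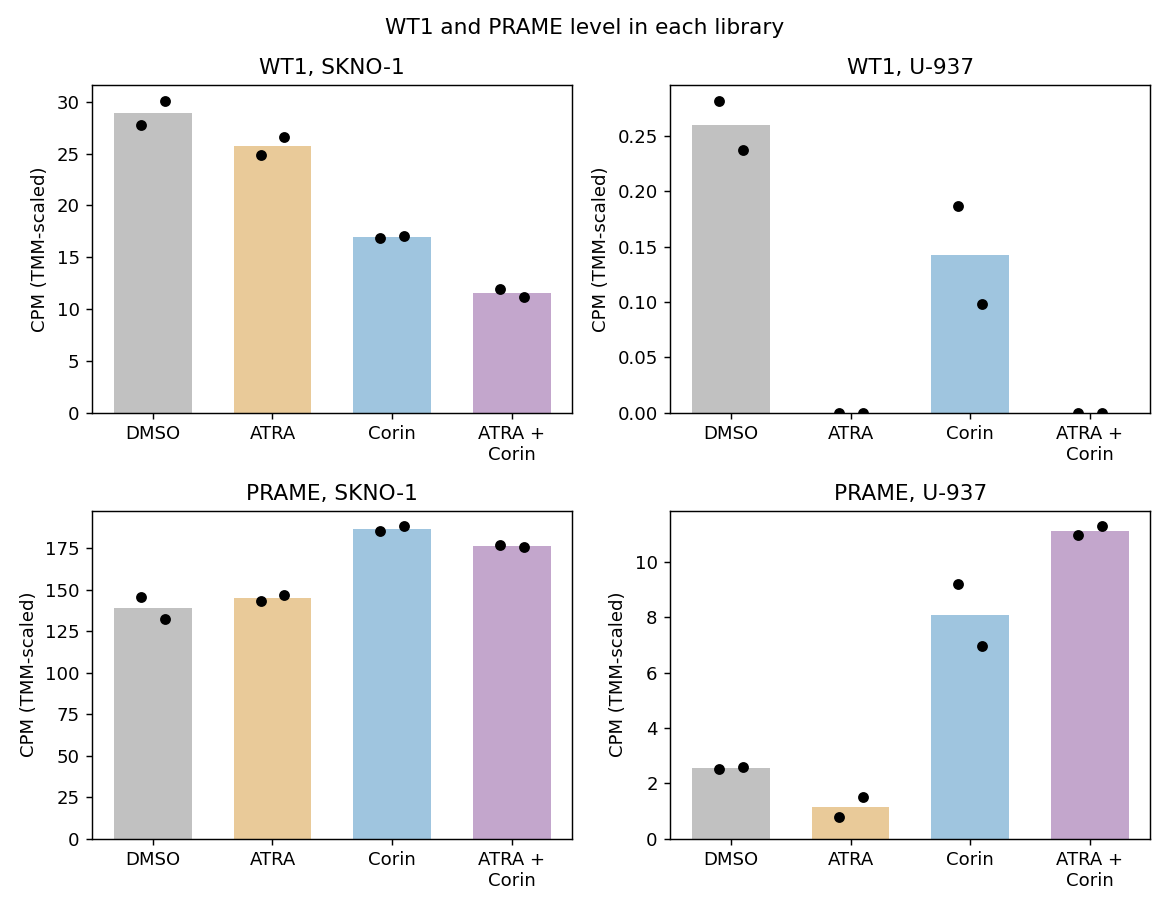
CPM on TMM-scaled totals (vertical axis, linear, a separate scale in each panel) of WT1 and PRAME in the 2 lines, with a dot for each library and a bar for the mean of the 2 libraries of a treatment (horizontal axis). WT1 in SKNO-1 stepped down from 28.9 CPM with DMSO to 11.6 with both agents, while PRAME in U-937 was lowest with ATRA (1.14 CPM) and highest with both agents (11.1 CPM).

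PRAME in SKNO-1 was abundant in every group and moved little. It held 5030 and 5035 counts with DMSO, which is 145 and 133 CPM (mean 139 ± 9.12, n = 2). With ATRA it stood at 143 and 147 CPM (145 ± 2.24), with Corin at 185 and 188 CPM (187 ± 2.05), and with both agents at 177 and 176 CPM (176 ± 1.13). In CPM the ATRA libraries lay across the upper DMSO library, whereas all 4 libraries with Corin lay above all 4 without it. Those with Corin alone lay above those with both agents. How many of all genes show such a separation is not given here.

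The fitted log2 change of PRAME against DMSO in SKNO-1 was 0.06 (SE 0.0608) with ATRA, 0.43 (SE 0.0608) with Corin and 0.34 (SE 0.0608) with both agents. The ATRA value was about the size of its standard error and turned to -0.04 without DMSO replicate 2, while it was 0.08 without replicate 1. The Corin value was 0.47 and 0.34 and the value with both agents 0.40 and 0.27 without DMSO replicate 1 and 2. Both agents against ATRA gave 0.28 (SE 0.0608) and both agents against Corin -0.08 (SE 0.0606). The departure from additivity was -0.14 (SE 0.0858) and shrank to -0.03 without DMSO replicate 2.

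The PRAME rise with both agents in SKNO-1 depended on the unit. It did not hold in TPM, where these libraries lay between the 2 DMSO libraries. Deposited TPM were 48.3 and 62.9 with DMSO, 58.3 and 56.2 with ATRA, 76.5 and 77.2 with Corin, and 54.2 and 59.8 with both agents, so on the TPM scale the change with both agents was 0.04. The share of TPM in genes under 200 bases of effective length was 35.3% and 32.7% in the 2 libraries with both agents, against 32.0% and 25.1% with DMSO. Its part in the result was not tested. PRAME stood at percentile 93.5 to 93.9 of protein-coding genes in all 4 libraries with Corin and at 89.0 to 90.0 in the 4 libraries without it.

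In U-937, PRAME was scarce with DMSO, lower with ATRA and several times higher wherever Corin was present. The DMSO libraries held 80 and 76 PRAME counts (2.50 and 2.58 CPM, mean 2.54 ± 0.0520, n = 2). The ATRA libraries held 28 and 50 counts (0.772 and 1.52 CPM, mean 1.14 ± 0.527), and the spread between them was the widest of the 4 groups relative to the mean. The Corin libraries held 346 and 214 counts (9.20 and 6.98 CPM, mean 8.09 ± 1.57). The libraries with both agents held 371 and 329 counts (11.0 and 11.3 CPM, mean 11.1 ± 0.231). No library overlapped that of another group, and the order from low to high was ATRA, DMSO, Corin, both agents. PRAME was chosen for its pattern, and the share of all genes that separate in this way is not given here.

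PRAME in U-937 was 2.24-fold lower with ATRA than with DMSO (log2 change -1.16, SE 0.266), 3.19-fold higher with Corin (1.68, SE 0.225) and 4.38-fold higher with both agents (2.13, SE 0.224). The ATRA value was -0.74 without ATRA replicate 1 and -1.73 without ATRA replicate 2, so its size rests on libraries of 28 and 50 counts. Added to Corin, ATRA went with a change of 0.46 (SE 0.202), opposite in sign to its change on its own. That value was 0.67 without Corin replicate 1 and 0.27 without Corin replicate 2. Both agents against ATRA gave 3.30 (SE 0.245), a 9.82-fold difference. The departure from additivity of PRAME in U-937 was 1.62 (SE 0.334). Its size also rests on the ATRA libraries: it was 1.20 without ATRA replicate 1 and 2.18 without ATRA replicate 2. On deposited TPM it was 1.32.

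The step of PRAME from Corin to both agents in U-937 was the weakest part of this order. TPM were 3.95 and 3.58 with Corin and 3.92 and 3.58 with both agents, a log2 change of -0.01 on that scale, and the share of TPM in short genes was 31.9% and 31.8% with Corin and 37.7% and 39.0% with both agents. The percentile of PRAME among protein-coding genes was 37.9 and 34.5 with Corin and 42.1 and 41.9 with both agents. TPM with DMSO (1.15 and 1.23) and with ATRA (0.30 and 0.65) kept the order seen in CPM. In the authors' deposited table the log2 change of PRAME in U-937 was -1.16 (SE 0.465) with ATRA, 1.67 (SE 0.285) with Corin and 2.11 (SE 0.264) with both agents.

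**Figure D2:**
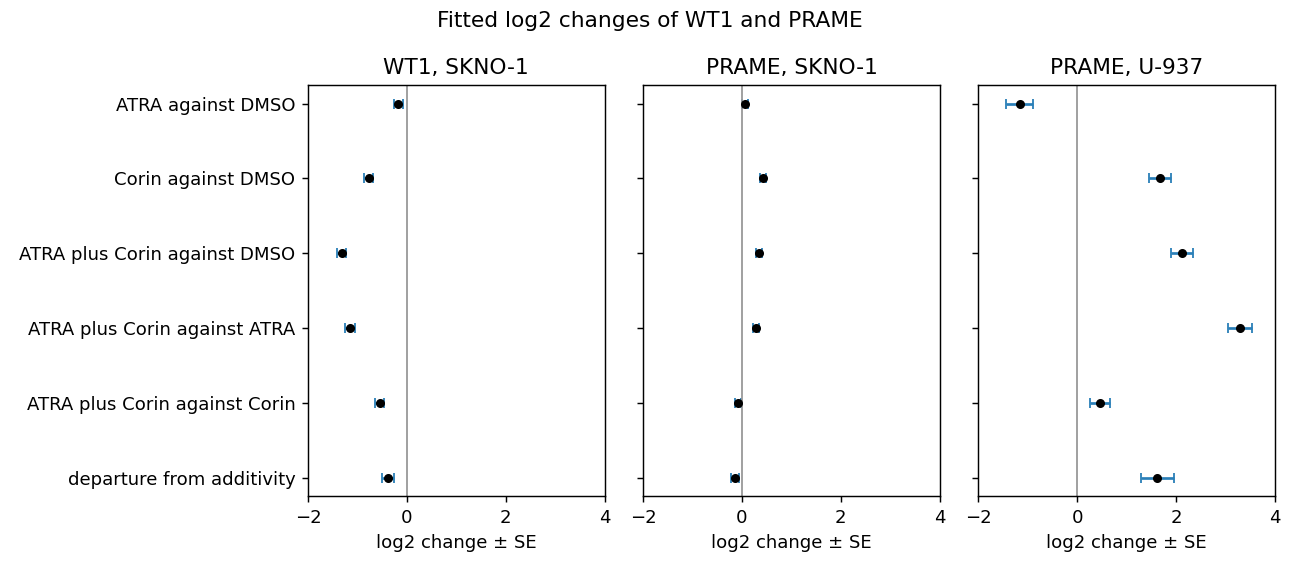
Fitted log2 change with its standard error (horizontal axis) for 5 comparisons and the departure from additivity (vertical axis) in SKNO-1 for WT1 and PRAME and in U-937 for PRAME, where dots are estimates from 2 libraries a group and the comparisons share libraries. The 3 changes of WT1 against DMSO are negative, at -0.17, -0.77 and -1.32, and PRAME in U-937 has -1.16 with ATRA and 2.13 with both agents.

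The 2 genes differed in the treatments under which they were highest, and both were far lower in U-937. A fit over all 16 libraries put PRAME 59.7-fold lower in U-937 than in SKNO-1 with DMSO, 136-fold lower with ATRA, 25.1-fold lower with Corin and 16.8-fold lower with both agents. WT1 was 121-fold lower in U-937 with DMSO and 127-fold lower with Corin (SE 0.212 and 0.231 on the log2 scale). WT1 entered this fit through its SKNO-1 counts, and the U-937 side rests on 16 counts with DMSO and 10 with Corin. It was at least 630-fold lower with ATRA and at least 257-fold lower under the combination. The gap in PRAME between the lines was thus smallest with both agents, and even there the U-937 libraries held 371 and 329 counts against 5688 and 5855. Per length, PRAME lay above WT1 in every one of the 16 libraries, for example at TPM 77.2 against 10.7 in the second SKNO-1 Corin library.

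WT1-AS is a long noncoding RNA read from the opposite strand of the same start region, and it did not follow WT1. Its annotated start lies 0 kb from that of WT1 at this resolution and the annotations overlap by 47 bases. The sources used here do not give whether counting was by strand, so reads within those 47 bases cannot be told apart. In SKNO-1 the DMSO libraries held 9.77 and 8.53 CPM of WT1-AS and the ATRA libraries 9.75 and 10.6. The Corin libraries held 12.4 and 12.5 CPM, above all others, and those with both agents 10.6 and 11.6. It rose by 0.44 on the log2 scale with Corin (SE 0.120, edgeR quasi-likelihood adjusted p = 0.0214), while ATRA (0.16, adjusted p = 0.592) and both agents (0.28, adjusted p = 0.0964) did not pass the test. The Corin call was lost without Corin replicate 1 (0.45, adjusted p = 0.0960) and without Corin replicate 2 (0.43, adjusted p = 0.108). WT1-AS had 0 or 1 counts in each U-937 library.

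Of 24 annotated genes whose span reaches within 500 kb of WT1, 7 were tested in SKNO-1 and 6 in U-937. In SKNO-1, 0 of the 7 passed with ATRA by edgeR's quasi-likelihood test, where 6.76% of all 17479 tested genes did. With Corin 2 rose and 0 fell, WT1-AS and EIF3M, a translation initiation factor subunit (log2 change 0.18, adjusted p = 0.0314), against 37.9% of all genes called in either direction. With both agents 0 rose and 2 fell, RCN1, a calcium-binding protein of the endoplasmic reticulum (-0.65, adjusted p = 5.24e-04), and QSER1 (-0.72, adjusted p = 0.00925), against 46.7% of all genes. With 7 genes tested, nothing is read from these shares. The EIF3M call was lost without either Corin library (adjusted p = 0.191 and 0.0868) and with DESeq2 (0.0578), and the QSER1 call without replicate 2 of both agents (0.0641).

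In U-937, 3 of the 6 tested WT1 neighbours fell with ATRA, where 41.8% of 17717 genes were called, 1 fell with Corin (QSER1, -0.36, edgeR quasi-likelihood adjusted p = 0.0159), where 12.9% were, and 5 fell with both agents, where 65.3% were. None of the 6 rose in any of the 3 comparisons. The 3 with ATRA were EIF3M (-0.54), RCN1 (-0.36) and QSER1 (-0.27), and the calls of RCN1 and QSER1 were lost on leaving out single libraries. Without DMSO replicate 2 the changes of RCN1 and QSER1 were -0.21 and -0.25. RCN1 fell by 0.85 on the log2 scale with both agents (adjusted p = 6.17e-07) and QSER1 by 1.32 (adjusted p = 5.8e-11). The Corin call of QSER1 was lost without DMSO replicate 1 or 2 (adjusted p = 0.0584 and 0.119) and without Corin replicate 1 (0.199). With 6 genes tested, nothing is read from these shares.

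PRAME lies in the immunoglobulin lambda locus, and of 126 genes reaching within 500 kb, 114 had 0 counts in all SKNO-1 libraries and 104 in all U-937 libraries. In each line 5 were tested. In SKNO-1, 0 were called with ATRA, 1 fell with Corin, and 1 rose and 1 fell with both agents, where 6.76%, 37.9% and 46.7% of all genes were called. In U-937, 1 fell with ATRA, 0 were called with Corin, and 1 rose and 2 fell with both agents, where 41.8%, 12.9% and 65.3% were called. With 5 genes, nothing is read from these shares. The nearest of them, ZNF280B, a zinc finger gene whose start lies 50.6 kb from that of PRAME, moved the other way from PRAME under Corin in SKNO-1. Its log2 change there was -0.78 with Corin (edgeR quasi-likelihood adjusted p = 0.00474) and -0.71 with both agents (adjusted p = 0.00532). In U-937 ZNF280B fell by 0.61 with ATRA (adjusted p = 0.00803) and by 1.65 with both agents (adjusted p = 5.39e-08), and the value with Corin, -0.30, did not pass (adjusted p = 0.305). The ATRA call of ZNF280B was lost without DMSO replicate 1 (adjusted p = 0.0661) and without ATRA replicate 2 (0.0954). The long noncoding RNA AC245060.7, 261.2 kb from the PRAME start, moved the same way as PRAME with both agents: it rose by 0.70 in SKNO-1 (adjusted p = 0.0366) and by 1.02 in U-937 (adjusted p = 7.21e-04). Its SKNO-1 call was lost without DMSO replicate 2 (0.162) or either library with both agents (0.0846 and 0.179) and with DESeq2 (0.144). AC245060.5 fell by 0.93 in U-937 with both agents (adjusted p = 0.0452), a call lost without DMSO replicate 1 or 2 (0.114 and 0.123), without replicate 2 of both agents (0.152) and with DESeq2 (0.0964). IGLV5-52, a variable segment, did not pass in either line.

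**Figure D3:**
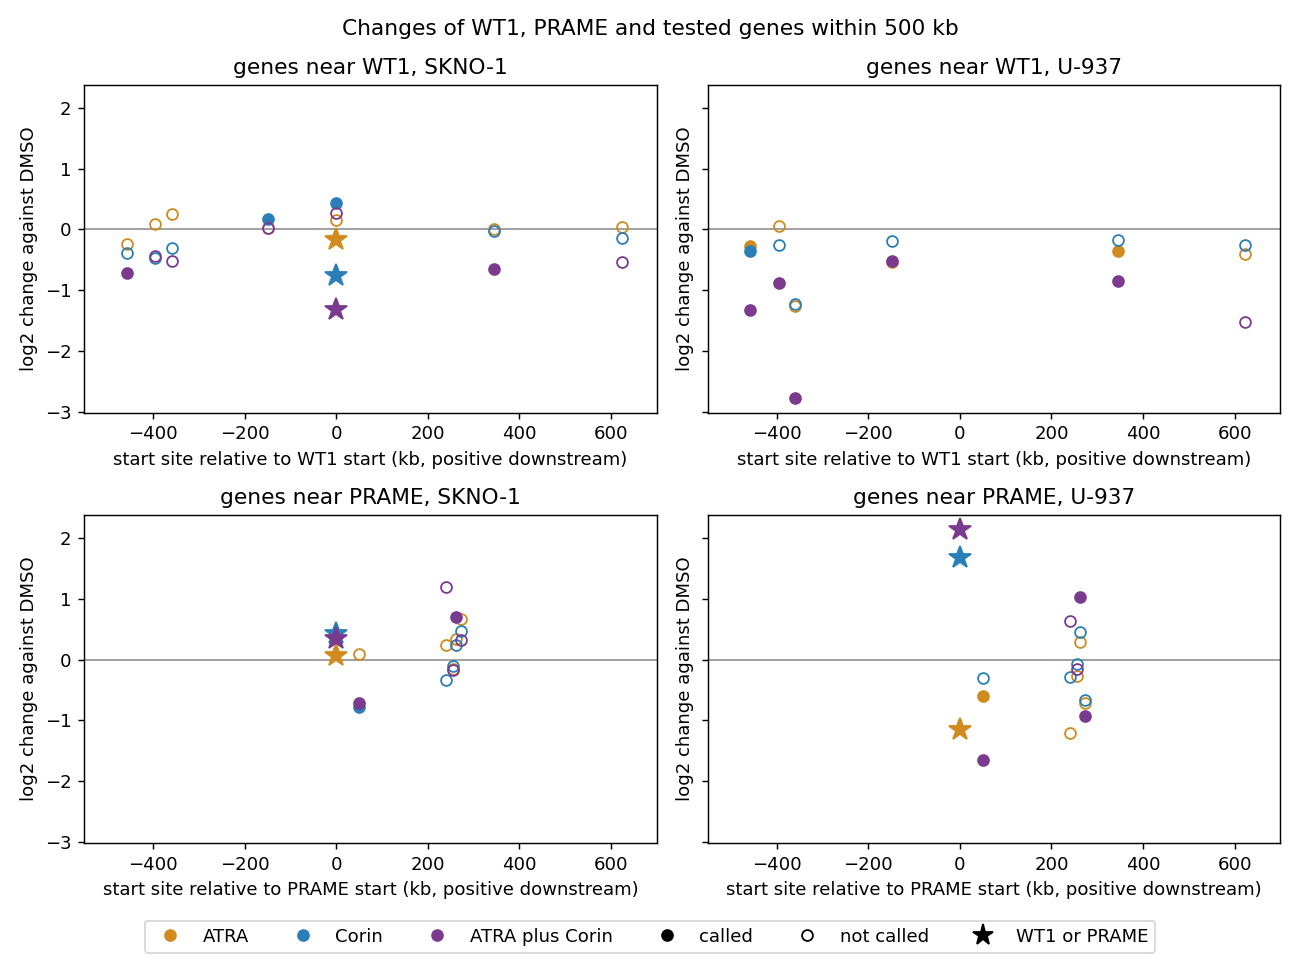
Log2 change against DMSO (vertical axis) of the tested genes near WT1 and PRAME, placed by the distance of their start from the member's start in kb along its strand (horizontal axis), with filled circles for adjusted p under 0.05, open circles otherwise and stars for WT1 and PRAME themselves, which carry no test. WT1 has no star in U-937 because it was not fitted there, and the star of PRAME with both agents in U-937 (2.13) stands opposite ZNF280B (-1.65) and on the same side as AC245060.7 (1.02).

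Genes around WT1 and PRAME were grouped by role, in lists chosen with earlier results of these data known. A gene rose or fell where its p by edgeR's quasi-likelihood test, adjusted over all tested genes, was under 0.05. The shares of all genes in this paragraph are those to set beside the counts of every list that follows. Counts near those shares show nothing particular to a list. Of the 288 list genes matched in the table, 140 were tested in SKNO-1, and 6 rose and 17 fell with ATRA, where 2.96% and 3.79% of all genes rose and fell. With Corin 31 rose and 40 fell against 20.5% and 17.3%, and with both agents 37 rose and 48 fell against 24.7% and 22%. The ATRA count of 23 was 67 without DMSO replicate 1, 46 without DMSO replicate 2, and 11 and 13 without ATRA replicate 1 and 2. The Corin count of 71 was 91 and 94 without those DMSO libraries and 42 and 41 without Corin replicate 1 and 2. In U-937, 134 were tested: 27 rose and 37 fell with ATRA (21.7% and 20.1% of all genes), 16 and 5 with Corin (8.55% and 4.4%) and 41 and 69 with both agents (33.1% and 32.2%). The U-937 Corin count of 21 was 13 without DMSO replicate 1.

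Other leukaemia antigens did not share 1 direction. Of 28 tested in SKNO-1, 1 rose and 5 fell with ATRA, 7 rose and 8 fell with Corin, and 9 rose and 8 fell with both agents, with median log2 changes of -0.12, 0.16 and -0.08 against 0.01, 0.00 and 0.05 over all genes. PRTN3, proteinase 3 of neutrophil granules and the source of the PR1 peptide, rose from 7.95 ± 3.92 CPM with DMSO to 29.8 ± 3.37 with ATRA (adjusted p = 0.00451) and 65.9 ± 5.25 with both agents (adjusted p = 1.04e-04). Its ATRA call was lost when only the 4 compared libraries were fitted (edgeR quasi-likelihood adjusted p = 0.0878). CCNA1, cyclin A1, rose from 5.84 ± 0.407 CPM to 23.6 ± 1.19 with Corin (adjusted p = 1.35e-05) and 22.7 ± 0.371 with both agents (adjusted p = 9.61e-06). The checkpoint receptor HAVCR2 (TIM-3) rose by 2.08 with Corin (adjusted p = 6.25e-04), and the granule enzymes ELANE and MPO fell by 1.63 (adjusted p = 0.00687) and 0.79 (adjusted p = 0.00308). ELANE had 34.8 ± 19.9 CPM with DMSO, a wide spread between the 2 libraries, and its call was lost without Corin replicate 1 or 2 (adjusted p = 0.0535 and 0.0620).

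In U-937, 27 leukaemia antigens were tested. With ATRA 7 rose and 8 fell, with Corin 3 rose and 0 fell, and with both agents 9 rose and 15 fell, and the median with both agents was -0.68 against 0.03 over all genes. PRTN3 rose from 42.1 ± 9.12 to 128 ± 6.36 CPM with ATRA (adjusted p = 2.64e-09). CCNA1 fell by 1.06 with ATRA (adjusted p = 1.91e-08) and rose by 0.40 with Corin (adjusted p = 0.0107), a call lost without DMSO replicate 1 or 2 (0.110 and 0.0538) or Corin replicate 1 (0.152). HAVCR2 fell by 0.98 with ATRA (adjusted p = 5.98e-04) and rose by 1.10 with Corin (adjusted p = 2.24e-04) and by 1.67 with both agents (adjusted p = 4.08e-08). Its directions in the 3 comparisons were those that PRAME showed, though all 3 comparisons share the DMSO libraries. The division genes BIRC5 (survivin) and CCNB1 (cyclin B1) each fell by 1.56 with both agents (adjusted p = 2.83e-11 and 8.48e-11).

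Most cancer-testis genes, the class to which PRAME belongs, were silent. Of 118 matched, 69 had 0 counts in all SKNO-1 libraries and 66 in all U-937 libraries, and 28 and 25 were tested. In SKNO-1, 1 rose and 2 fell with ATRA, 6 rose and 7 fell with Corin, and 6 rose and 11 fell with both agents. MAGEB2, an X-linked melanoma antigen family member, rose from 2.73 ± 0.228 to 6.31 ± 0.234 CPM with both agents (adjusted p = 5.43e-04), and SPEF2, a sperm flagellar protein, fell from 35.1 ± 4.70 to 14.1 ± 1.11 CPM (adjusted p = 8.72e-05). In U-937, 3 rose and 6 fell with ATRA, 1 rose and 3 fell with Corin, and 7 rose and 11 fell with both agents. ACTL8, an actin-like protein, fell from 6.16 ± 0.318 CPM with DMSO to 0.820 ± 0.342 with ATRA (adjusted p = 1.46e-08) and 0.113 ± 0.0344 with both agents (adjusted p = 5.95e-12), and PBK, a mitotic kinase, fell by 3.42 with both agents (adjusted p = 6.78e-17).

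The PRAME gene family was almost absent: 30 of 33 members had 0 counts in every SKNO-1 library and 29 in every U-937 library. LRRC14, a leucine-rich repeat relative, was the 1 member tested in each line. It fell by 0.63 in U-937 with both agents (adjusted p = 7.41e-04) and passed in no other comparison. Members of this family are near-identical copies, and low counts divided among them are uncertain.

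The partners named in work on PRAME comprised the CUL2 ligase, the KEOPS complex, the retinoic acid receptors, Polycomb and NFY, with 20 genes tested in each line. In SKNO-1, 1 rose and 1 fell with ATRA, 2 rose and 6 fell with Corin, and 4 rose and 6 fell with both agents. In U-937, 2 rose and 2 fell with ATRA, 1 rose and 0 fell with Corin, and 5 rose and 11 fell with both agents. RARB, a receptor gene known to be induced by retinoic acid, had 0 counts with DMSO and with Corin in both lines and reached 20.8 ± 0.405 CPM with ATRA (adjusted p = 1.75e-15) and 27.5 ± 4.95 CPM with both agents (adjusted p = 1.24e-16) in U-937. In SKNO-1 it reached 0.594 ± 0.0767 CPM with ATRA and 2.22 ± 0.168 with both agents.

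RARG rose in SKNO-1 by 2.76 with Corin (adjusted p = 3.82e-05) and by 3.13 with both agents (adjusted p = 1.35e-05), and the value with ATRA did not pass. In U-937 RARG fell by 1.17 with ATRA (adjusted p = 4.83e-05) and rose by 0.77 with Corin (adjusted p = 0.00574), a call lost without DMSO replicate 1 (0.109) or Corin replicate 2 (0.0522). RARA rose in SKNO-1 with both agents, from 8.07 ± 2.37 to 19.4 ± 1.39 CPM (adjusted p = 0.00135). EZH2, the Polycomb methyltransferase, fell in U-937 with both agents from 82.0 ± 2.60 to 27.5 ± 1.49 CPM (adjusted p = 1.58e-12), and SUZ12, its complex partner, fell by 1.02 (adjusted p = 2.61e-09). CUL2 fell by 0.47 in SKNO-1 with both agents (adjusted p = 6.12e-04).

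Reported targets of WT1 moved in both directions. Of 34 tested in SKNO-1, 2 rose and 6 fell with ATRA, 10 rose and 10 fell with Corin, and 14 rose and 11 fell with both agents. In U-937, where WT1 had at most 9 counts in a library, 6 of 35 rose and 17 fell with ATRA, 6 rose and 2 fell with Corin, and 11 rose and 19 fell with both agents, with medians of -0.39, 0.00 and -0.71. THBS1, an adhesive matrix protein, rose in SKNO-1 from 2.35 ± 0.136 to 113 ± 4.67 CPM with ATRA (adjusted p = 1.08e-07) and to 90.8 ± 3.04 with both agents (adjusted p = 5.7e-08), and in U-937 by 2.62 with ATRA (adjusted p = 1.23e-10). EGR1, an immediate early factor, fell by 3.09 in SKNO-1 (adjusted p = 1.38e-04) and by 2.59 in U-937 (adjusted p = 1.92e-06) with ATRA.

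The apoptosis inhibitor BCL2 fell in SKNO-1 by 0.76 with ATRA (adjusted p = 0.00295) and by 1.14 with both agents (adjusted p = 9.04e-05), and in U-937 by 3.98 with both agents (adjusted p = 3.6e-18). MYC in U-937 went from 214 ± 8.44 CPM with DMSO to 39.1 ± 1.21 with ATRA (adjusted p = 2.43e-15) and 4.55 ± 0.211 with both agents (adjusted p = 1.19e-20). CDKN1A, the cell cycle inhibitor p21, fell by 1.19 in SKNO-1 with ATRA (adjusted p = 0.00367) and rose by 1.97 there with Corin (adjusted p = 6.19e-05). The SKNO-1 ATRA calls of BCL2 and CDKN1A were lost when only the 4 compared libraries were fitted (edgeR quasi-likelihood adjusted p = 0.0744 for each). The part of WT1 in the changes of its reported targets was not tested.

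Cofactors of WT1 include enzymes that read or change chromatin. Of 19 tested in SKNO-1, 1 rose and 2 fell with ATRA, 2 rose and 6 fell with Corin, and 3 rose and 9 fell with both agents, with a median of -0.26 in the last against 0.05 over all genes. TET2, the methylcytosine oxidase that WT1 recruits, fell by 0.52 with ATRA (adjusted p = 0.0322) and by 0.73 with both agents (adjusted p = 0.00141), and IDH2, which makes the cofactor of TET enzymes, fell by 0.71 with Corin (adjusted p = 0.00561). The ATRA call of TET2 was lost without ATRA replicate 1 or 2 (adjusted p = 0.0819 and 0.203), and that of IDH2 without Corin replicate 2 (0.0527). Of 18 tested in U-937, 6 rose and 4 fell with ATRA, 4 rose and 0 fell with Corin, and 7 rose and 8 fell with both agents. IDH2 fell there by 1.54 with both agents (adjusted p = 3.48e-12), whereas TET2 rose by 0.97 (adjusted p = 2.99e-08).

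Reported regulators of WT1 transcription were tested for 13 genes in SKNO-1, of which 0 rose and 1 fell with ATRA, 5 rose and 4 fell with Corin and 3 rose and 3 fell with both agents. GATA2, a progenitor factor, fell from 28.1 ± 7.59 to 12.8 ± 0.102 CPM with ATRA (adjusted p = 0.00495), a call just lost without ATRA replicate 1 or 2 (0.0504 and 0.0531). MYB, a progenitor factor at 577 ± 40.5 CPM with DMSO, rose by 0.68 with Corin (adjusted p = 1.26e-04) and by 0.41 with both agents (adjusted p = 0.00105), the groups in which WT1 was lowest. NFKB1 fell by 0.71 with Corin (adjusted p = 1.08e-04) and CTCF by 0.53 (adjusted p = 2.79e-04). In U-937, 3 of 11 rose and 2 fell with ATRA, 1 rose and 0 fell with Corin, and 3 rose and 6 fell with both agents, and MYB fell by 0.69 with ATRA (adjusted p = 7.99e-06) and by 0.97 with both agents (adjusted p = 1.59e-08).

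**Figure D4:**
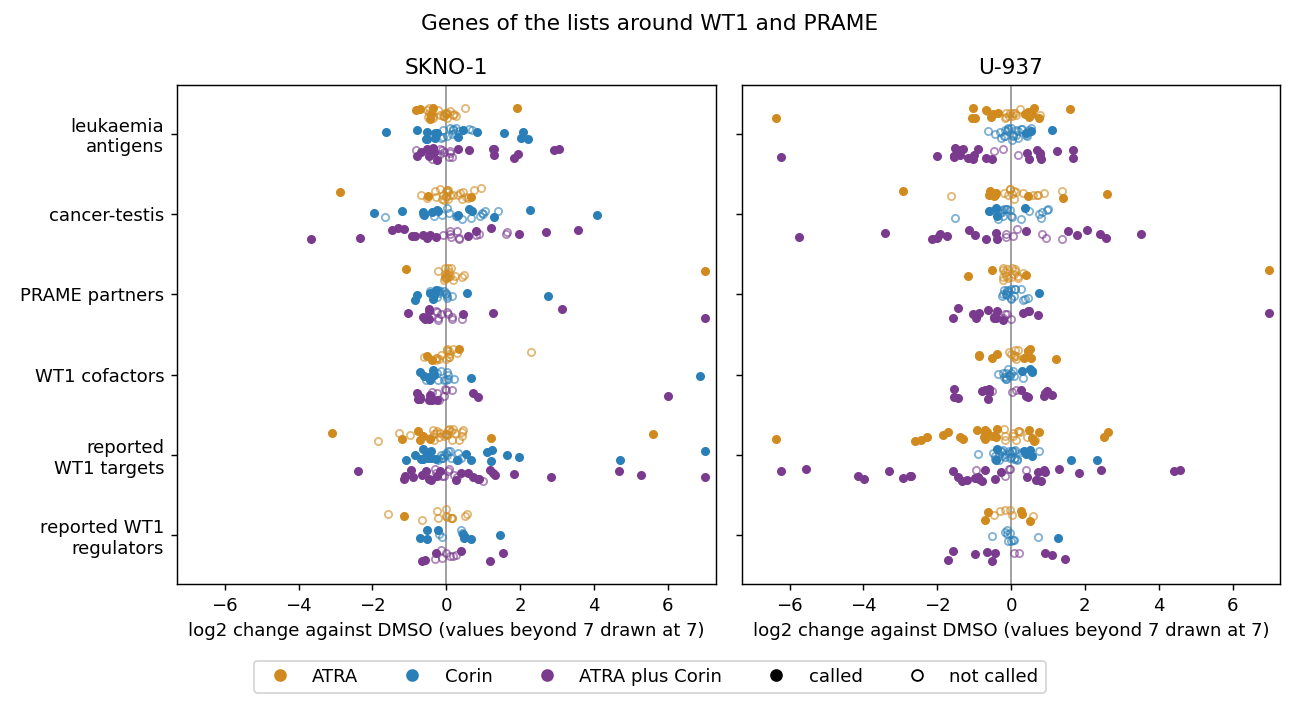
Log2 change against DMSO (horizontal axis, values above 7 drawn at 7) of each tested gene in 6 of the lists (vertical axis) for the 3 treatments in each line, with filled circles for adjusted p under 0.05 and open circles otherwise. In U-937 with both agents 69 of 134 list genes fell and 41 rose, and the points drawn at 7 include RARB, which had 0 counts with DMSO, so its fitted value is no measure of size.

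The genes most like WT1 and PRAME were found by Pearson's r of log2 CPM over the 8 libraries of a line, among protein-coding genes averaging 5 CPM or more with a log2 range of at least 1. These are descriptions over libraries that share treatment and scaling, are the extremes of all candidates, and carry no p. For WT1 in SKNO-1, out of 1872 candidates, the highest were IGFBP7, a secreted growth factor binding protein (r = 0.995), the nuclear chaperone ANP32B (0.994) and the zinc finger gene ZNF888 (0.994). IGFBP7 went from 20.7 CPM with DMSO to 18.2 with ATRA, 10.8 with Corin and 6.81 with both agents, the same order of groups as WT1. The lowest were PDE1B, a phosphodiesterase (r = -0.993), the lysosomal protease CTSL (-0.992) and DFFA, an inhibitor of apoptotic DNA cleavage (-0.991).

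For PRAME in SKNO-1 the highest were the reductase AKR1A1 (r = 0.989), the acyl-CoA synthetase ACSF2 (0.981) and MTURN (0.980). The 3 lowest, out of 1873 candidates, were HMGCS1 (r = -0.984), MSMO1 (-0.977) and IDI1 (-0.976), which all encode enzymes of the cholesterol pathway. The group means of HMGCS1 were 387 CPM with DMSO, 137 with Corin and 150 with both agents. For PRAME in U-937, out of 4358 candidates, the highest were the sulfotransferase TPST1 (r = 0.988), the potassium channel KCNN4 (0.986) and pyruvate carboxylase PC (0.984), and the lowest MBNL3 (-0.971), SLC12A2 (-0.970) and ADI1 (-0.962). PC averaged 3.81 CPM in the ATRA group, 7.16 in the DMSO group, 21.0 in the Corin group and 25.7 under the combination, the same order of groups as PRAME.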

How the data were processed

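The authors deposited RSEM estimated (expected) counts and TPM per gene for each library, and 1 table of the estimated counts, per the file headers. The submitters' processing notes name Trimmomatic, STAR, RSEM, deepTools, DESeq2 and hg38, without versions. The authors' deposited comparison tables hold log2 fold changes with standard errors per the file headers. The authors' table of counts equalled the single files (largest difference 0). The annotation release and the use of strand are not given in the sources used here. An ERCC mix was added per the labels, and 0 rows of the table name it.

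Counts were rounded (changing a total by at most 42.03). In each line, edgeR 4.0.16 in R 4.3.3 with filterByExpr, TMM scaling and a robust quasi-likelihood fit of all 8 libraries without a replicate block left 4 residual degrees of freedom. Genes were called at a Benjamini-Hochberg adjusted p under 0.05 over all genes kept (17479 for SKNO-1, 17717 for U-937). The biological coefficient of variation was 0.107 and 0.0945. SE is the unshrunken log2 change divided by the root of F. A 16-library fit compared the lines. DESeq2 1.42.0 was an alternative. The self-test ran on simulated counts. Levels are mean ± SD of CPM, n = 2.

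WT1, PRAME and the lists were chosen with earlier results of these data known. The lists held 291 genes, of which 288 were matched by symbol. Named from each list were at most 6 called genes a comparison, those with the largest change and a mean of at least 1 CPM in the line. Neighbours were taken within 500 kb. For likeness, CPM had a prior count of 2.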

Additional observations from a re-analysis of the deposited data

Results flagged for a closer look

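For 8 genes of the lists, the change against DMSO was called in opposite directions in the 2 lines, and the difference between the lines (U-937 minus SKNO-1) was fitted over the 16 libraries with edgeR's quasi-likelihood test and adjustment over all genes. The genes were picked for their opposite calls in these libraries, so the p of the difference is not independent evidence of it. With ATRA, the antigen CD33 fell by 0.42 on the log2 scale in SKNO-1 and rose by 0.39 in U-937, a difference of 0.85 (adjusted p = 1.74e-05). PTPRC (CD45) changed by -0.35 and 0.49, a difference of 0.88 (adjusted p = 1.25e-04). CDKN1A changed by -1.19 and 2.52, a difference of 3.76 (adjusted p = 6.28e-09), and TET2 by -0.52 and 0.46, a difference of 1.03 (adjusted p = 1.40e-04). With both agents, SPAG1 changed by 0.81 and -1.13, a difference of -1.89 (adjusted p = 6.37e-05). PRTN3 changed by 3.06 and -1.17, a difference of -4.19 (adjusted p = 1.72e-06), and CCNA1 by 1.96 and -1.02, a difference of -2.94 (adjusted p = 2.76e-11). MYB changed by 0.41 and -0.97, a difference of -1.34 (adjusted p = 4.63e-08), and TET2 by -0.73 and 0.97, a difference of 1.74 (adjusted p = 6.59e-08). The SKNO-1 call was lost for PTPRC without ATRA replicate 1 or 2 (adjusted p = 0.184 and 0.193) and on library totals (0.0997), for CD33 without ATRA replicate 1 (0.0601), for TET2 with ATRA without ATRA replicate 1 or 2 (0.0819 and 0.203), and for SPAG1 without replicate 2 of both agents (0.0508) and with DESeq2 (0.0576). Fitting only the 4 compared libraries lost the SKNO-1 ATRA calls of CDKN1A, CD33, PTPRC and TET2 (adjusted p = 0.0744, 0.100, 0.310 and 0.246). Line and medium cannot be told apart in the differences between the lines.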

How the results depend on the processing

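Recomputed values of the WT1 and PRAME changes and of the count of list genes called numbered 273. Of these, 238 stayed within the replicate spread or 1.5 times the count, 32 moved further, and 3 moved further and changed sign. Among the 238, PRAME in SKNO-1 with ATRA turned to -1.65e-04 without ATRA replicate 2. The cause was not tested where none is given. For PRAME in SKNO-1, ATRA against DMSO ran from -0.044 to 0.084 on leaving out a library, both agents against ATRA gave 0.31 with no low-count filter and 0.27 to 0.33 on leaving out a library, both agents against Corin gave -0.13 on library totals and -0.12 with DESeq2, and the departure from additivity ran from -0.16 to -0.030. Corin against ATRA for PRAME in SKNO-1 (0.37) gave 0.43 on library totals, 0.40 with no filter, 0.41 with 4 libraries, 0.40 with DESeq2 and 0.35 to 0.41 on leaving out a library, and for WT1 (-0.60) it ran from -0.63 to -0.52. PRAME in U-937 with both agents gave 2.01 on library totals, where the median of all genes moved from 0.03 to -0.09.

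On deposited TPM, WT1 in SKNO-1 gave -0.68 with Corin, -1.79 with both agents, -1.65 for both against ATRA, -1.12 for both against Corin, -0.53 for Corin against ATRA and -0.97 for the departure from additivity. PRAME in SKNO-1 gave 0.036 with both agents, -0.0074 for both against ATRA, -0.43 for both against Corin, 0.42 for Corin against ATRA and -0.47 for the departure, and in U-937 it gave 1.66 with both agents and -0.0058 for both against Corin. The list genes called in SKNO-1 numbered 4 with ATRA and 40 with Corin when only the 4 compared libraries were fitted, against 23 and 71, and ran from 11 to 67 and from 41 to 94 on leaving out a library. In U-937 with Corin they ran from 13 to 18 on leaving out a library, against 21.

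On library totals, 3232 genes rose and 4154 fell in U-937 with ATRA, against 3848 and 3557 by TMM, 5036 and 6366 with both agents, against 5860 and 5710, and 3720 and 2365 in SKNO-1 with Corin, against 3590 and 3029. Of 1782 alternatives for 198 results of called list genes and neighbours (the latter chosen after seeing the data), 1604 kept direction and call, 178 lost the call and 0 changed direction. Whether replicate numbers pair the libraries is not given, and correlations of same-numbered deviations had no common sign, running from -0.49 to 0.42. With a replicate block WT1 in SKNO-1 with both agents was -1.32, PRAME in U-937 was 2.13, and the list genes called numbered 18 in SKNO-1 with ATRA. Depth limited WT1 in U-937, where 0 counts in a library allow up to 3.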
